A study of Mus musculus with 23 samples.

Results

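The paternal and the maternal allele of each gene were compared within 7 mouse embryos (4 female, 3 male) that had Zfp57 from neither parent, called M-Z- in the labels, out of 23 embryos in the series. These are whole E13.5 embryos labelled 129/DBA, genotype Zfp57-/-, born to Zfp57-/- mothers of the 129 strain, so both the oocyte and the embryo lacked the gene. The father gave a mutant copy too and came from the DBA* line, in which the deletion, made on 129S6/SvEvTac, had been crossed 12 times to DBA/2J. The comparison groups were 6 M-Z+ embryos (3 female, 3 male; no Zfp57 in the oocyte, a working copy from the father) and 6 M+Z+ embryos (2 female, 4 male; Zfp57 in the oocyte and the embryo), which the titles both write as Zfp57-/+. The study's text writes M+Z+ as Zfp57+/-, some of its captions as Zfp57+/+, and the column names as WT. Whether M+Z+ embryos had a mutant copy, and from which parent, is thus unsure from these sources. Their allele balance near Zfp57 is given with chromosome 17. No treatment was given, and in every embryo the mother was 129 and the father DBA-derived. Autosomal genes with 20 or more allele reads (reads assigned to the maternal or paternal allele by a sequence variant) per M-Z- embryo on average were tested, which left 6443 of 26183 gene symbols, 6081 off chromosome 17 and 362 on it. Chromosome 17, which carries Zfp57, is described apart. The comparison asked which allelic biases remained in the absence of Zfp57. Because all crosses ran in the same direction, a parent-of-origin bias and a 129 against DBA strain bias cannot be told apart within a genotype, whereas a difference between genotypes at the same gene compares embryos of the same cross direction.

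Imprinted genes are expressed from only the maternal or only the paternal copy, according to DNA methylation that the egg or the sperm laid down at imprinting control regions. ZFP57 is a KRAB zinc finger protein that binds a methylated hexanucleotide, TGCCGC, at most of these regions in the early embryo and recruits, through KAP1, the enzymes that keep the methylation through the genome-wide erasure after fertilisation. Other imprinted genes, called noncanonical, are silenced on the maternal copy through histone H3 lysine 27 methylation inherited from the egg.

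Total gene counts were 15.9 to 20.4 M reads in the M-Z- libraries, and the allelic tables, from a separate alignment, held 2.46 to 3.22 M allele reads each. The level of Zfp57 (chr17:37138108-37147674, mm9) was 33.0, 31.9, 34.0 and 33.3 CPM (counts scaled to library size) in the 4 females and 35.3, 25.5 and 28.3 CPM in the 3 males. The mean, 31.6 ± 3.46 CPM (SD, n = 7), was 44.7% of the M+Z+ level (70.8 ± 14.8 CPM, n = 10) and 44.5% of the M-Z+ level (71.1 ± 4.65 CPM, n = 6). The M-Z- embryos overlapped with neither group (two-sided exact permutation test, p = 5.14e-05 and p = 5.83e-04, the smallest these designs can give). Which part of the transcript the remaining reads came from was not tested, and no read of Zfp57 was informative for the allele. Of 22 decidua and placenta genes, 17 to 20 had 0 counts in each M-Z- library, and their summed level was 0.122 to 0.693 CPM. Of all autosomal allele reads, 44.1% to 48.1% were paternal in the M-Z- embryos, and 51.6% to 51.8% once globin genes and chromosome 17 were left out.

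Off chromosome 17, most genes were read about equally from both alleles. The balance was measured by the P-score, the paternal share of a gene's allele reads minus 0.5, which is 0.5 when all reads are paternal, 0 when the alleles are equal and -0.5 when all are maternal. A bias was called where edgeR's quasi-likelihood test of the paternal against the maternal reads within embryos gave an adjusted p under 0.05 and the mean P-score had a size of 0.1 or more. By this rule 1047 of 6081 genes (17.2%) were biased, 479 towards the paternal allele (7.88%) and 568 towards the maternal allele (9.34%). The median P-score was -0.0015. Of the 6081 genes, 4011 had a mean P-score below 0.05 in size, 953 lay between 0.05 and 0.1, 432 between 0.1 and 0.2, 274 between 0.2 and 0.45, and 411 at 0.45 or more. The distribution thus had a broad centre and a separate peak at each end.

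**Figure D1:**
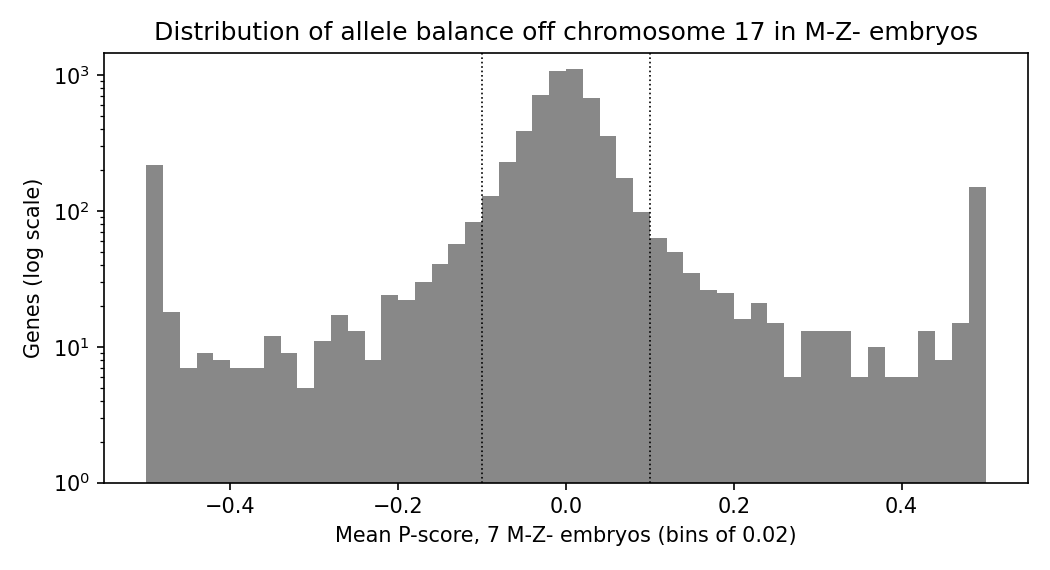
Number of genes off chromosome 17 (log scale) by mean P-score over the 7 M-Z- embryos. Dotted lines mark a P-score of 0.1 in either direction; most of the 6081 genes lie between them, and 411 genes at 0.45 or more in size form the peaks at both ends.

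Among genes known to be imprinted, most of those biased in M+Z+ embryos were not called in M-Z- embryos. A list of 155 imprinted genes was used, of which 137 were in the tables. Of these, 64 had no allele read in any M-Z- embryo, and 53 passed the minimum of 20 reads, 51 of them off chromosome 17. Of these 51, 12 (23.5%) were biased, 7 paternal and 5 maternal, beside 17.2% of all genes tested. The median size of the P-score was 0.0326 in the list and 0.0306 over all genes tested, whereas in M+Z+ embryos the same list had a median of 0.344. Of the 51, 29 were biased in M+Z+ embryos by the same test. In M-Z- embryos 7 of these 29 were biased in the same direction, 2 in the opposite direction, and 20 were not called. The largest size among those 20 was 0.0909, against 0.112 to 0.498 in M+Z+.

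**Figure D2:**
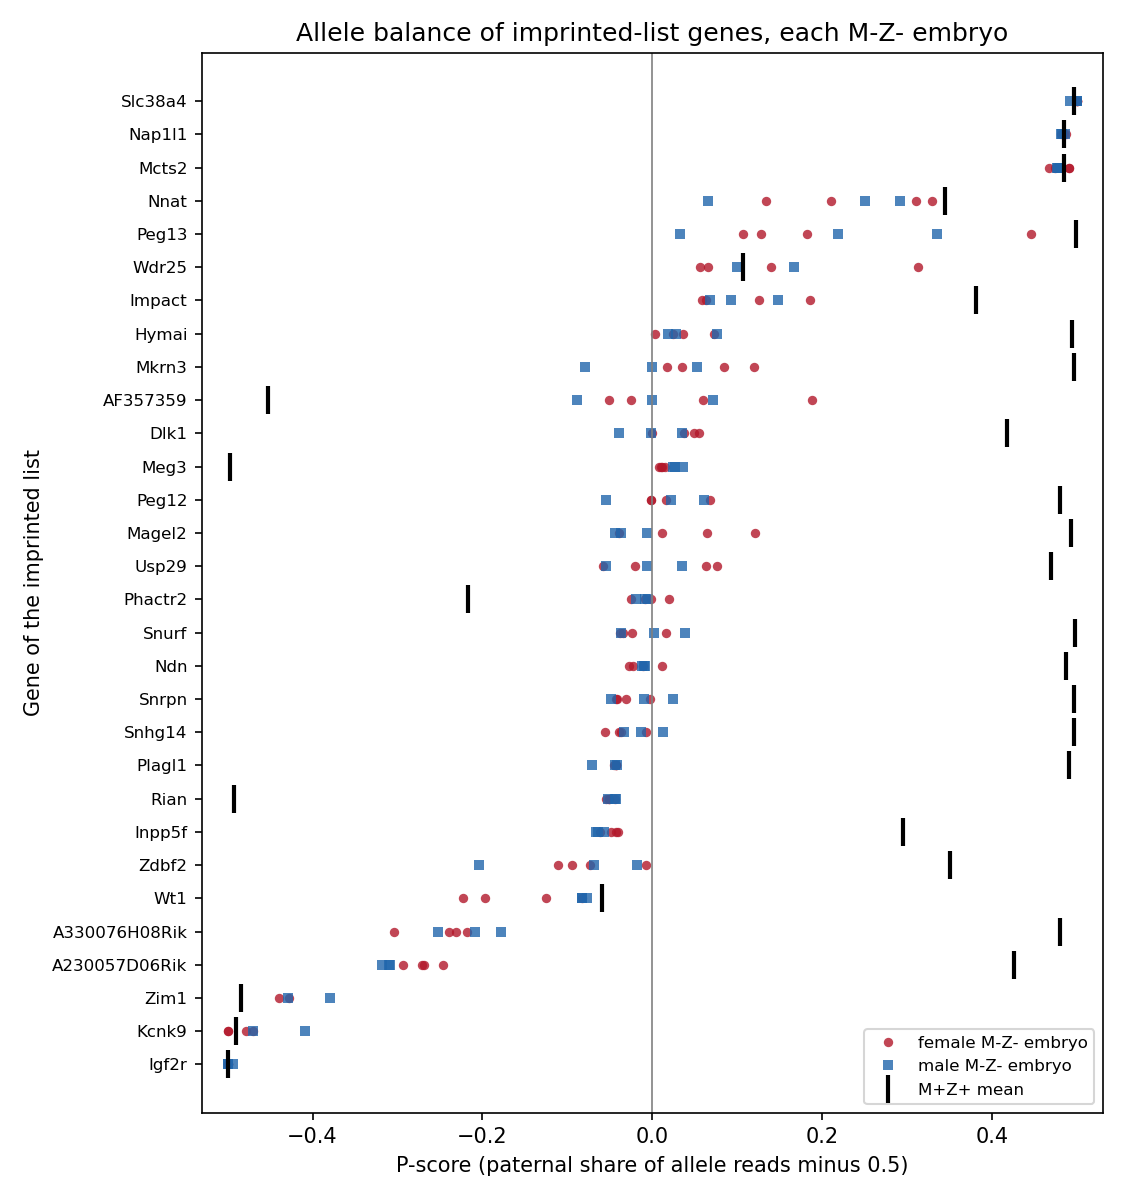
P-score of each imprinted-list gene that was biased in M-Z- embryos or differed from M+Z+, 1 point per M-Z- embryo with more than 10 allele reads (circles female, squares male), with the M+Z+ mean as a bar. Slc38a4, Mcts2 and Nap1l1 lie at the paternal end and Igf2r, Kcnk9 and Zim1 at the maternal end in both genotypes, while the genes around 0 lie far from their M+Z+ bars.

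The promoters of 5 genes are shown, 2 that stayed read from the paternal allele without Zfp57 (Slc38a4, Mcts2) and 3 that lost their bias (Plagl1, Snrpn, Meg3), since the same cross gave opposite outcomes for them. Each runs from 250 bases before the start of a RefSeq transcript to 30 after it on the coding strand, build GRCm38.p6, which is not the build of the read tables. Capitals mark TGCCGC or its reverse complement GCGGCA, searched on both strands. Where a gene had several starts, the window that held the hexanucleotide was taken, and otherwise the first listed.
Slc38a4: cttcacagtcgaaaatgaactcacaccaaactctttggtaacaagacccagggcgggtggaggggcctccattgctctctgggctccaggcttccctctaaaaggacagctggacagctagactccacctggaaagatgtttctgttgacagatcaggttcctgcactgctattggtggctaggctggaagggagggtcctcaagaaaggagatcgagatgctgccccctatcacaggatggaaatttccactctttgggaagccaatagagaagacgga
Mcts2: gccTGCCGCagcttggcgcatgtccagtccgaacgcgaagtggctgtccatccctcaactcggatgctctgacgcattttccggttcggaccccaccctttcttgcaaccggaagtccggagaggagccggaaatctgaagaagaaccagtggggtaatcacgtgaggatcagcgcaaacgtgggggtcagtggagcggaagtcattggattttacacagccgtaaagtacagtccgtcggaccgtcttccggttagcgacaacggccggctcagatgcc
Plagl1: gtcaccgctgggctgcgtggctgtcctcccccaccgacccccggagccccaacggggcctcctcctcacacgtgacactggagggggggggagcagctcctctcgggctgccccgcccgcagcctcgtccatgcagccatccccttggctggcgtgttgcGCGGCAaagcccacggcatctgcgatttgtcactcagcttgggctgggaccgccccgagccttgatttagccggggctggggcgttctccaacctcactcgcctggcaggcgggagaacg
Snrpn: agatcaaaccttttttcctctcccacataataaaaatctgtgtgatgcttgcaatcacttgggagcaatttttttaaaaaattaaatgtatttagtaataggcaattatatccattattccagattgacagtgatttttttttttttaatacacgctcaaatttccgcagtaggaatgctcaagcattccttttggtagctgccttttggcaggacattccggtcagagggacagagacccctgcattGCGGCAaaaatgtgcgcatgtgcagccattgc
Meg3: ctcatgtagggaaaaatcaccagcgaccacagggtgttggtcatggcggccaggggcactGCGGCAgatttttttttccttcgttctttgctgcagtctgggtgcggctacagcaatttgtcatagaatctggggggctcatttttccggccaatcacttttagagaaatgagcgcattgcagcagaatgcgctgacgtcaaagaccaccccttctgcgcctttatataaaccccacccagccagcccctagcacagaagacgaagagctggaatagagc
They lie at chr15:97055927-97056206 (minus strand), chr2:152686898-152687177 (plus), chr10:13090582-13090861 (plus), chr7:60005170-60005449 (minus) and chr12:109540746-109541025 (plus), in that order. The hexanucleotide occurs in none of 3 windows of Slc38a4, in the 1 window of Mcts2 and of Plagl1, in 1 of 4 windows of Snrpn and in 1 of 2 of Meg3. Among all promoters of the table it occurs in 3407 of 32851 windows (10.4%). Counted by gene, it was found in 1013 of 5024 tested genes with a window (20.2%), in 6 of the 18 imprinted-list genes with a window that were biased in M+Z+ and not in M-Z- (33.3%), and in 2 of the 8 imprinted-list genes with a window that were biased in M-Z- (25%). These are matches of letters, and binding was not measured.

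Slc38a4, an amino acid transporter with noncanonical imprinting, stayed paternal. It had 1043 paternal reads and 1 maternal read summed over the 7 M-Z- embryos (chr15:96825254-96886387, mm9). Its P-score was 0.5 in all 4 females and in males 1 and 2, and 0.492 in male 3. The mean of 0.499 ± 0.003 (SD, n = 7; adjusted p = 1.33e-12) stood beside 0.497 in M+Z+ and 0.5 in M-Z+ embryos, and neither difference was called (adjusted p = 0.871 and 0.951). The study also counts Slc38a4 among control regions with DNA methylation, which it found mostly retained in other M-Z- embryos. Of the other noncanonical genes tested, Sfmbt2 (0.0235), Gab1 (0.0217), Smoc1 (0.0271) and Sall1 (-0.0077) were biased in neither M-Z- nor M+Z+ embryos.

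Mcts2, a retrogene inside an intron of H13, also stayed paternal. Its P-scores were 0.491, 0.474, 0.490 and 0.467 in the females and 0.476, 0.477 and 0.480 in the males, from 1246 paternal and 26 maternal reads. The mean of 0.479 ± 0.009 (n = 7; adjusted p = 1.61e-12) compared with 0.485 in M+Z+ and 0.476 in M-Z+ (difference from M+Z+ not called, adjusted p = 0.958). H13, its host, encodes a signal peptide peptidase and was weakly maternal in M+Z+ embryos (-0.112). In M-Z- embryos it stood at -0.0831 ± 0.0559, below the size needed for a call. Mcts2 lies within the coordinates of H13, but its reads were not all counted for both. In each M-Z- embryo Mcts2 had more paternal reads than H13, for example 213 against 167 in female 1. In other embryos, the study listed the Mcts2 control region among those whose DNA methylation was affected in M-Z- females and males alike. Whether the bias of Mcts2 goes with parent or strain cannot be told apart in this cross.

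Nap1l1, a nucleosome assembly protein listed as a single imprinted gene of the maternal allele, was read almost wholly from the paternal allele in each genotype. The 7 M-Z- embryos spanned only 0.481 to 0.487, with 15804 paternal and 262 maternal reads. Mean P-scores were 0.484 ± 0.002 in M-Z-, 0.485 in M+Z+ and 0.486 in M-Z+ embryos. The direction is thus opposite to the one the list gives for it.

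Kcnk9 and Zim1 stayed maternal. Kcnk9, a potassium channel gene of the Peg13 region, had P-scores of -0.478, -0.5, -0.470 and -0.5 in the females and -0.470 and -0.409 in males 1 and 3, while male 2 had too few reads. Its mean was -0.471 ± 0.033 (n = 6; adjusted p = 1.05e-07), against -0.490 in M+Z+ (difference not called, adjusted p = 0.721). Zim1, a zinc finger gene beside Peg3, passed the minimum with 24.6 reads per embryo and had a P-score in only 4 embryos, at -0.427, -0.439, -0.429 and -0.380. Too few reads were left in female 2 (1 paternal, 4 maternal), female 4 (3 and 3) and male 2 (0 and 6). The Zim1 mean of -0.419 ± 0.026 (adjusted p = 1.66e-05) compared with -0.484 in M+Z+ embryos, which spanned -0.497 to -0.461, so the values did not overlap. That difference was not called (adjusted p = 0.0817).

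Peg13, a noncoding RNA of the paternal allele within Trappc9, kept part of its bias and varied most among embryos of all list genes called. Its P-scores were 0.445, 0.107, 0.128 and 0.182 in the 4 females and 0.218, 0.0329 and 0.335 in the 3 males, with 463 reads per embryo on average. All 7 were on the paternal side. Every M+Z+ embryo was at 0.497 or above, and the M-Z- mean of 0.207 ± 0.142 was lower (log2 difference in the paternal to maternal ratio -8.42 ± 0.853, SE; adjusted p = 2.97e-08). It was also lower than in M-Z+ embryos (mean 0.492; adjusted p = 1.82e-07). Female 1 and male 3 had the highest values, so the spread did not follow sex. Trappc9 (-0.0332) and Ago2 (-0.049), neighbours in the same region, were not biased. Chrac1, a chromatin accessibility complex subunit beside them, was called paternal in M+Z+ (0.137), stood at 0.0909 ± 0.106 in M-Z- without a call, and did not pass the test of the difference (adjusted p = 0.919).

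Impact and Nnat were also biased towards the paternal allele in M-Z- embryos. Impact, a regulator of translation, had P-scores of 0.186, 0.125, 0.0635 and 0.0581 in the females and 0.0925, 0.0681 and 0.148 in the males. Its mean of 0.106 ± 0.049 (n = 7; adjusted p = 4.87e-05) lies just above the 0.1 needed for a call and was below it without female 1 or without male 3. The M+Z+ embryos spanned 0.376 to 0.390, all above the M-Z- embryos, and the log2 difference was -2.27 ± 0.229 (adjusted p = 2.71e-08). M-Z+ embryos were between, at 0.292 ± 0.098 (difference from M-Z- called, adjusted p = 1.41e-04). Nnat, a membrane proteolipid of the developing brain, stood at 0.329, 0.211, 0.133 and 0.311 in the females and 0.066, 0.25 and 0.292 in the males. The mean was 0.227 ± 0.098 (adjusted p = 4.96e-04) in M-Z-, 0.344 ± 0.095 in M+Z+ and 0.160 ± 0.126 in M-Z+ embryos. Nnat had fewer than 20 allele reads per embryo on average in M+Z+, so neither its bias there nor its difference between genotypes was tested, and the values of the genotypes overlapped within their spread.

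Wdr25 and Wt1 were biased in M-Z- embryos and not called in M+Z+ embryos. Wdr25, near Dlk1, had a mean of 0.140 ± 0.095 over 6 embryos, from 97 paternal and 54 maternal reads in all (adjusted p = 0.0317), beside 0.107 in M+Z+. Its call ended without female 2, male 1 or male 3 and with DESeq2 (adjusted p = 0.125). Wt1, a transcription factor of kidney and gonad, stood at -0.125 ± 0.061 (adjusted p = 0.0121), beside -0.0597 ± 0.165 in M+Z+, a difference that was not called (adjusted p = 0.895).

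A230057D06Rik and A330076H08Rik, noncoding transcripts between Snrpn and Ndn, turned from the paternal to the maternal allele. A230057D06Rik had P-scores of -0.293, -0.271, -0.269 and -0.246 in M-Z- females and -0.309, -0.310 and -0.318 in males, and 0.35 to 0.5 in the 5 M+Z+ embryos with enough reads. A330076H08Rik had -0.239, -0.232, -0.218 and -0.305 in the females and -0.208, -0.178 and -0.253 in the males, and 0.429 to 0.5 in M+Z+. No embryo overlapped between the genotypes for either gene. Mean P-scores in M-Z- were -0.288 ± 0.027 and -0.233 ± 0.040 (adjusted p = 1.66e-09 and 1.35e-07). The log2 differences from M+Z+ were -5.58 ± 0.444 (adjusted p = 2.17e-10) and -7.32 ± 0.468 (adjusted p = 1.89e-12). M-Z+ means were -0.201 ± 0.093 and -0.0641 ± 0.105, on the maternal side as well, though female M-Z+ 3 was at 0.1333 for A330076H08Rik. Only A330076H08Rik was called different between M-Z- and M-Z+ (adjusted p = 0.0152, and 0.0568 without female M-Z- 4, against 0.638 for A230057D06Rik).

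The remaining genes of the Snrpn region lost their bias. These are Snrpn and Snurf, which share a transcript for a splicing factor subunit, the host RNA Snhg14, and Ndn, Magel2, Mkrn3 and Peg12, all expressed from the paternal copy in M+Z+ embryos (0.480 to 0.498). In M-Z- embryos their means lay between -0.0246 (Snhg14) and 0.0326 (Mkrn3). Snrpn, for example, had P-scores of -0.0418, -0.0314, -0.003 and -0.043 in the females and 0.0242, -0.0488 and -0.0101 in the males, against 0.494 to 0.499 in M+Z+ (log2 difference -8.14 ± 0.284, adjusted p = 2.13e-18). In M-Z+ embryos the means of the 7 genes lay from 0.0939 (Mkrn3) to 0.162 (Peg12), with a wide spread between embryos. Snrpn spanned -0.0369 to 0.2387 there and Mkrn3 -0.0339 to 0.2475. Of the 7 genes, 5 differed between M-Z+ and M-Z- (Snrpn, Snurf, Snhg14, Ndn and Peg12, adjusted p = 4.90e-04 to 0.0361). The calls of Ndn and Peg12 lay near the threshold, with P-score differences of -0.1388 and -0.1467 in all embryos. Ndn lost its call without any of 5 embryos (adjusted p up to 0.10), at differences of -0.1121 to -0.1404. Peg12 lost its call without any of 8 (up to 0.108), at differences of -0.1118 to -0.1515. Magel2 and Mkrn3 did not pass (adjusted p = 0.283 and 0.915). Snrpn, Snurf and Snhg14 overlap and may share reads. Ube3a, which is maternal in neurons, was at 0.0066 in M-Z- and -0.0501 in M+Z+ embryos, and its difference was under 0.1 in size.

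Plagl1, a zinc finger regulator of fetal growth, and the noncoding RNA Hymai, which starts beside it, were paternal in M+Z+ embryos (0.491 and 0.495). In M-Z- embryos Plagl1 stood at -0.0456, -0.0428, -0.043 and -0.0432 in females and -0.0709, -0.0434 and -0.042 in males, at 12690 reads per embryo. These values sit on the maternal side in all 7 embryos, and the test found that small shift (adjusted p = 3.50e-07), below the size for a call. The log2 difference from M+Z+ was -6.99 ± 0.162 (adjusted p = 1.88e-22). Hymai was at 0.0368 ± 0.0274. Phactr2, the neighbour that was maternal in M+Z+ (-0.217 ± 0.014), was at -0.0072 ± 0.0145 in M-Z- (log2 difference 1.30 ± 0.0635, adjusted p = 4.91e-15). For all 3 genes M-Z+ embryos kept the M+Z+ balance, at 0.492, 0.495 and -0.211, and differed from M-Z- (adjusted p = 1.24e-22 to 1.17e-14).

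In the Dlk1 region the paternal and the maternal genes moved to 0 from opposite ends. Dlk1, a Notch-family ligand, went from 0.418 ± 0.008 in M+Z+ to 0.0193 ± 0.0341 in M-Z- (log2 difference -3.37 ± 0.0836, adjusted p = 7.65e-22). Meg3, a maternal noncoding RNA, went from -0.498 ± 0.002 to 0.0186 ± 0.0104, with 0.0151, 0.0078, 0.0097 and 0.0115 in the females and 0.0261, 0.0242 and 0.0359 in the males. Its log2 difference was 8.78 ± 0.472 (adjusted p = 3.71e-14). Rian, another maternal RNA, stood at -0.0486 ± 0.0047 against -0.492 in M+Z+, and AF357359, a small RNA within Rian, at 0.0222 ± 0.0929 against -0.453. M-Z+ embryos were at 0.424, -0.466, -0.468 and -0.463 for Dlk1, Meg3, Rian and AF357359, all different from M-Z- (adjusted p = 5.02e-22 to 1.75e-05). Mir770, which is not in the list and lies within Meg3, followed it, at -0.5 in all 6 M+Z+ embryos and 0.0134 ± 0.117 in M-Z- (adjusted p = 4.56e-08). Begain, upstream of Dlk1 (0.0318 in M-Z-), was biased in M+Z+ (0.151), and differed from M-Z+ (0.234; adjusted p = 0.0129, and 0.0513 without female M-Z- 3) but not from M+Z+ (adjusted p = 0.50).

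Usp29, Inpp5f and Zdbf2, each paternal in M+Z+ embryos, also lost that bias. Usp29, a ubiquitin protease gene beside Peg3, was at 0.0048 ± 0.0543 in M-Z- and 0.469 ± 0.012 in M+Z+ (log2 difference -4.90 ± 0.379, adjusted p = 1.20e-10), while Zim1 of the same region stayed maternal. Inpp5f, a phosphoinositide phosphatase, was at -0.0544 ± 0.0103 against 0.295 ± 0.015 (log2 difference -2.27 ± 0.0777, adjusted p = 1.40e-18). Zdbf2 had P-scores of -0.0736, -0.0949, -0.111 and -0.0079 in females and -0.205, -0.0179 and -0.0682 in males, all on the maternal side, against 0.208 to 0.432 in M+Z+ (adjusted p = 6.24e-07).

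The other 19 list genes off chromosome 17 were not called in M-Z- embryos, with P-scores up to 0.095 in size, and those tested in M+Z+ were not called there. They include Gnas (-0.0359) and Rb1 (0.0168). Snord64, a small RNA of the Snrpn region at 22.1 reads per embryo, was at -0.095 ± 0.138 in M-Z- and at 0.5 in the 3 M+Z+ embryos with enough reads, too few for a test there. Several abundant imprinted genes could not be read at all. H19 (7031 CPM in M-Z- embryos), Igf2 (3491 CPM), Mest (2109 CPM), Cdkn1c (1037 CPM), Grb10 (975.5 CPM) and Peg10 (494 CPM) had no allele read, and Peg3 (1527 CPM) had 0.286 per embryo. Among genes for the upkeep of imprints, of 6 tested (Dnmt1, Dnmt3a, Dnmt3b, Zfp445, Setdb1 and Arid4b), 0 were biased by edgeR and 0 by DESeq2, 1 had an unadjusted edgeR p under 0.05, and the median size was 0.0218. With 17.2% of all genes called, so few genes show nothing about the group.

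Compared directly with M+Z+ embryos, most of the genes whose allele balance changed off chromosome 17 were in the list. Of 5955 genes tested, 30 differed (0.504%), counted where the adjusted p was under 0.05 and mean P-scores were 0.1 or more apart, and 21 of them were among the 48 list genes tested. The P-score was lower in M-Z- for 17 of the 21 and higher for 4, the maternal genes Phactr2, Meg3, Rian and AF357359. Outside the list, 9 of 5907 genes differed. Against M-Z+ embryos, 23 of 5955 differed (0.386%), of which 19 were of the 48 list genes (15 lower, 4 higher) and 4 of 5907 lay outside it. Both comparisons use the same M-Z- embryos.

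**Figure D3:**
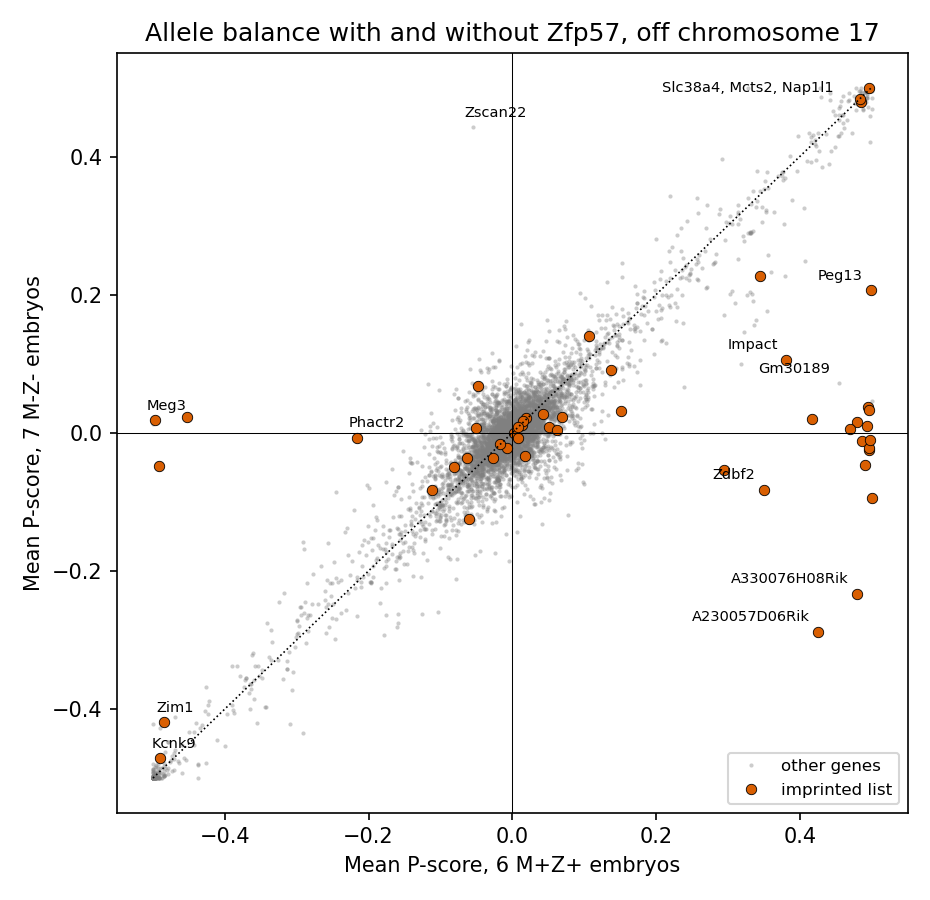
Mean P-score in 7 M-Z- embryos against 6 M+Z+ embryos, 1 point per gene tested off chromosome 17, imprinted-list genes in orange. Most genes lie along the dotted line of equality, while list genes such as Meg3 (-0.498 in M+Z+, 0.0186 in M-Z-) lie near 0 on the vertical axis.

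Of the genes outside the list, the largest differences from M+Z+ after Mir770 were in Zscan22, Gm30189, Zfp992 and Tacc2. Gm30189 lies within the coordinates of Gnas (chr2:174146407-174152888, mm9). Its P-scores were 0.372, 0.0778, -0.0122 and -0.0593 in M-Z- females and 0.158, 0.0952 and -0.128 in males, and 0.405 to 0.5 in M+Z+, with no overlap (log2 difference -3.61 ± 0.601, adjusted p = 1.72e-04). It differed from M-Z+ (0.436 ± 0.069) as well (adjusted p = 7.29e-04). Zscan22, a zinc finger gene on chromosome 7, was at 0.5 in 6 M-Z- embryos and 0.1 in male 1, whereas M+Z+ embryos spanned -0.219 to 0.0652 (adjusted p = 0.00356), and it had 36.7 reads per embryo. M-Z+ embryos were mixed, at 0.363 ± 0.213. Zfp992 moved from -0.117 ± 0.036 to 0.0714 ± 0.0746 (adjusted p = 0.00841). Tacc2 stood at 0.191 ± 0.062 against 0.335 ± 0.040 (adjusted p = 0.0234), and its call ended when any of 4 embryos was left out (adjusted p 0.0628 to 0.0806). The other 4 called were Fuca2, Mrpl33, Slc18a2 and Wdr83os, chosen here after their values were seen. Fuca2 (chr10:13220834-13238841, mm9) lies next to the imprinted Phactr2 (chr10:12927523-13194202). It moved from -0.0354 ± 0.0550 in M+Z+ to 0.0938 ± 0.0289 in M-Z- embryos (adjusted p = 8.38e-05). Against M-Z+, Rexo2 (-0.0652 in M-Z-, 0.163 in M-Z+; adjusted p = 0.00284) and Utrn (-0.0029 and -0.128; adjusted p = 0.0450) were the remaining genes called. Utrn (chr10:12101986-12581533, mm9) lies below Plagl1 (chr10:12810638-12851501) on the same chromosome. It lost its call without any of 11 of the 13 embryos compared (adjusted p 0.0526 to 0.158).

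Outside the list, 1035 of 6030 genes were biased in M-Z- embryos off chromosome 17, 472 paternal and 563 maternal, and 941 of them had the same sign in all 7 embryos. In M+Z+ embryos 886 of the 1035 were biased in the same direction, which is 85.6% of the M-Z- calls and 82.5% of the 1074 M+Z+ calls. None was called in the opposite direction, 125 were not called and 24 were not tested there. In M-Z+ embryos 875 were called in the same direction (84.5% of the M-Z- calls, 84.8% of the 1032 M-Z+ calls) and 0 in the opposite one. The median size of the difference between the mean P-scores of M-Z- and M+Z+ was 0.0169 over the 6030 genes. Of the calls, 16 were symbols whose allele counts were identical to those of another called gene.

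Of the 1035, 407 were read almost only from a single allele (a P-score of 0.45 or more in size), 168 paternal and 239 maternal. The other allele had 0 reads in all 7 embryos in 74 of the paternal and 132 of the maternal genes. The 10 largest paternal P-scores among genes with at least 100 reads were 0.5 in each embryo, in Eif4a2, Tubb3, Ifitm2, Adh5, Hspd1, Glyr1, Akt1s1, Gcsh, Fbxo22 and Lsm3. Eif4a2, a translation initiation factor, had 20956 paternal reads and no maternal read over the 7 embryos, which allows a maternal share of up to 0.0143%. Tubb3, a tubulin of neurons, had 14261 paternal reads and no maternal read (up to 0.021%). The 10 smallest were -0.5 in each embryo, in Rpl15, Snrpf, Pgam1, Bzw1, Tsen34, Chtop, Actn4, Hsd3b6, Polr2e and H2az2. Rpl15, a ribosomal protein, had 15561 maternal reads and no paternal read (up to 0.0193%), and Pgam1, a glycolytic enzyme, 5713 and none (up to 0.0525%). At these ends 44 eligible genes tied at 0.5 and 34 at -0.5, and mean reads broke the ties. All 20 genes named had mean P-scores of 0.4988 or more in size, in the same direction, in M+Z+ and in M-Z+ embryos, so the bias stood with and without Zfp57.

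The single-allele genes rested on fewer informative reads per transcript. Per 100 gene counts they had a median of 9.85 allele reads (quartiles 4.95 and 28.6), against 34.6 (13.6 and 58.7) in the 628 other biased genes and 32.1 (15.8 and 54.3) in the 4995 genes not called. The X chromosome gave a direct measure of allele assignment, since males carry only the maternal X. In the 3 M-Z- males, 33.4%, 32.4% and 35.3% of X-linked allele reads were nevertheless assigned to the paternal allele. They came from few genes. Of 88 X-linked genes with at least 20 reads, 76 had a P-score of -0.45 or lower, 4 lay between, and 8 (9.09%) had 0.45 or higher. Morf4l2, with 3204 reads per male, stood at 0.4996 in males and 0.4999 in females, and Atp6ap1 (747 reads) at 0.496 and 0.499. In the other direction, Hnrnph2 was at -0.5 in females as in males, where Flna, an actin crosslinker, was at 0.140 in females and -0.4998 in males. Genes read from a single allele thus included X-linked genes assigned to a copy that males do not have, and how many of the 407 autosomal genes share this was not tested.

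The other 628 biased genes, of intermediate P-score (304 paternal, 324 maternal), had a median SD over embryos of 0.0546. Single-allele genes lie at the bound of the score, so their spread is not comparable. Of the 628, 487 (77.5%) were called in the same direction in M+Z+. The globin genes were among the most covered, and 7 of 8 symbols tested were biased, beside 17.2% of all genes, 6 of the 7 being pairs with shared counts. The adult beta globins Hbb-b1 and Hbb-bs had identical counts (-0.4999 in M-Z-, 73150 reads per embryo), as had Hbb-b2 and Hbb-bt (-0.4997), and the alpha globins Hba-a1 and Hba-a2 (-0.497 ± 0.001), all maternal. Hbb-bh1, the embryonic beta globin, was paternal, at 0.348, 0.395, 0.347 and 0.349 in the females and 0.373, 0.327 and 0.341 in the males (mean 0.354 ± 0.023, adjusted p = 2.52e-12). Its mean was 0.355 in M+Z+ and 0.352 in M-Z+. Hba-x was not called. Hba-a1 was less extreme in M+Z+ (-0.485 ± 0.007; adjusted p = 1.45e-04), a difference below 0.1 in size.

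Of genes chosen because they vary between mouse strains, not always between these, Ahr and Hc were biased and Glo1, on chromosome 17, was not. These 3 were the only ones of the 11 listed with enough allele reads, and 17.2% of all genes off chromosome 17 were called. Ahr, the aryl hydrocarbon receptor, spanned -0.304 to -0.153 over the M-Z- embryos (mean -0.249 ± 0.050, adjusted p = 1.07e-05), beside -0.256 in M+Z+ and -0.219 in M-Z+. Hc, complement component 5, spanned -0.357 to -0.153 (mean -0.213 ± 0.071, adjusted p = 2.29e-05), beside -0.258 and -0.244. Of 12 organ markers tested off chromosome 17, 5 (41.7%) were biased, beside 17.2% of all genes, among them Myh6, the atrial myosin heavy chain, at 0.121 ± 0.031 (0.123 in M+Z+), and Nkx2-1, a lung and forebrain factor, at -0.486 ± 0.013 (-0.493 in M+Z+). Tubb3, Hba-a1 and Wt1 were the others. Of 168 genes with a Zfp symbol, 45 (26.8%) were biased, and of 36 symbols starting with Rps or Rpl 10 (27.8%), beside 17.2% of all genes. The Rps and Rpl symbols were taken by their letters and include genes of no ribosomal protein, such as the kinase Rps6kb1 and the pseudogene Rpl34-ps1, both among the 10.

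Some biased genes lay side by side. Of the 1035, 342 (33.0%) had a neighbouring tested gene called in the same direction, a share that was not compared with chance. There were 11 runs of 4 or more neighbours, named here after their values were seen. The longest was paternal on chromosome 1 and held 12 symbols (0.177 to 0.292), the Ugt1a glucuronosyltransferases, whose symbols share exons, with Hjurp and 2 noncoding transcripts. On chromosome 10, Raet1e, Raet1a, Raet1b, Raet1c and Raet1d, ligands of the NKG2D receptor, were paternal (0.199 to 0.469). On chromosome 13, the zinc finger genes Zfp748, Zfp729b, Zfp729a, Zfp738, Zfp65, Zfp85 and Zfp273 were maternal (-0.5 to -0.225). Each gene of the 11 runs had the same call in M+Z+ embryos. The runs named so far hold gene families. Members of such families are near copies of each other, and reads may have been placed on the wrong member. The remaining runs were all maternal. The run on chromosome 7 held beta globin genes beside Nup98, but several others held genes with unlike symbols. On chromosome 19, Frat2, Pgam1, Ubtd1, Morn4 and Pi4k2a spanned -0.5 to -0.4674. On chromosome 11, a run from Trim37 to Cox11, with Srsf1, Vezf1 and Cuedc1 among its genes, spanned -0.5 to -0.2933. Why such genes were called side by side was not tested.

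A few genes off chromosome 17 differed among the M-Z- embryos themselves. Between females and males 7 of 6081 genes differed (0.115%), against 275 at an unadjusted p below 0.05. Of the 51 list genes, 0 were called by edgeR and 0 by DESeq2, and 2 had an unadjusted edgeR p under 0.05. Far2, Tmtc1, Ergic2 and Rps4l, named after their values were seen, lie together on chromosome 6. Ergic2, a protein of the endoplasmic reticulum to Golgi pathway, was at 0.5, 0.5 and 0.498 in females 2 to 4, and at -0.0591 in female 1 and -0.0372, 0.0203 and -0.0195 in the males. Embryos of both other genotypes split likewise, at 0.0142 and -0.0078 in 2 M+Z+ embryos, -0.0058 in 1 M-Z+ embryo, and about 0.5 in the rest. Sdhd, a subunit of succinate dehydrogenase on chromosome 9, was at -0.494 and -0.472 in males 2 and 3 and near 0 in the other 5. Txlna was at -0.0537 in male 1 and 0.5 in the others. Of 4328 genes outside the list with at least 50 allele reads in each M-Z- embryo, 11 had a P-score range of 0.4 or more, 8 of them on chromosome 6 between Ergic2 and Bicd1. The number called between the sexes moved with single embryos, to 1 without female 2, 13 without female 1 and 4 without male 1. Ergic2 split within a sex as well, at -0.0078 in M+Z+ male 1 and 0.4988 to 0.5 in M+Z+ males 2 to 4. Litter and father are not given in the labels, so the parts of sex and sire were not tested.

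**Figure D4:**
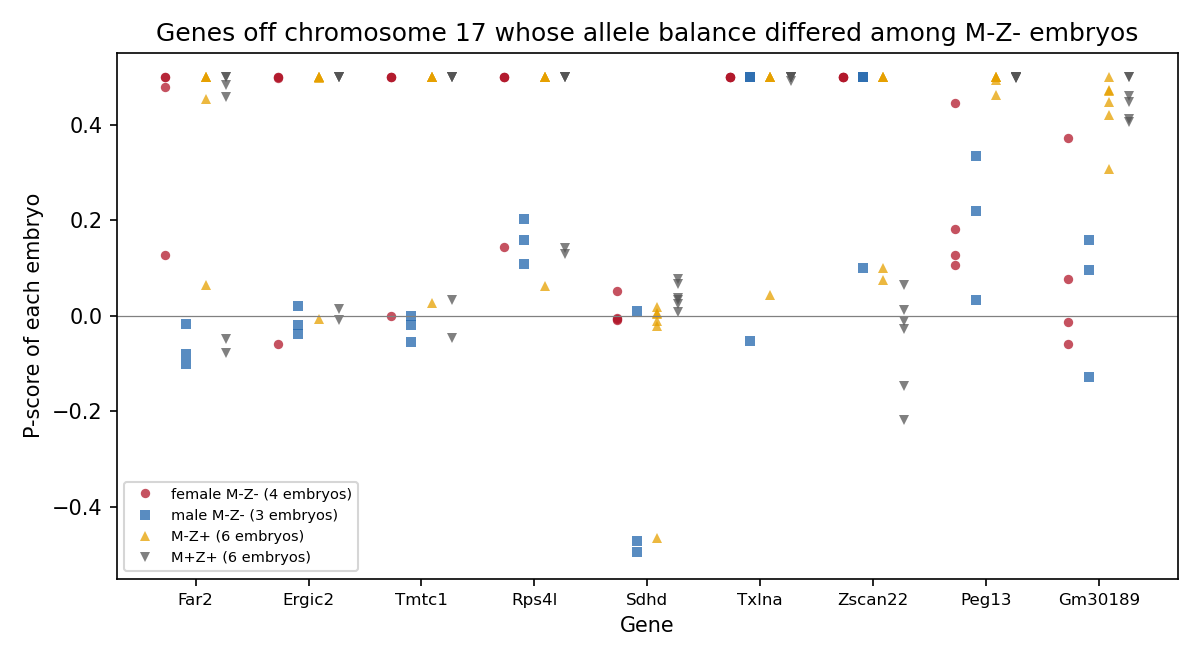
P-score of each embryo for 9 genes off chromosome 17 that varied among M-Z- embryos, by group (4 female M-Z-, 3 male M-Z-, 6 M-Z+, 6 M+Z+). Far2, Ergic2, Tmtc1 and Rps4l split into embryos near 0.5 and embryos between -0.1 and 0.202 in every genotype, while Peg13 and Gm30189 spread only in M-Z- embryos and stay above 0.3 in the others.

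On chromosome 17, 154 of 362 genes (42.5%) were biased in M-Z- embryos, 22 paternal and 132 maternal, with a median P-score of -0.108. The maternal calls were gathered around Zfp57. Within 5 Mb of it, 78 to 81 of 96 or 97 genes had a P-score of -0.45 or lower in each M-Z- embryo, against 3 to 5 in each M+Z+ or M-Z+ embryo. The nearest genes at lower coordinates were Trim10, Trim26, Trim39, Rpp21 and H2-T22. Trim10 had no paternal read among 3985 (an allowed paternal share of up to 0.0753%), where M+Z+ embryos were balanced (0.0347 ± 0.017; adjusted p = 1.40e-22). Trim26, Trim39 and Rpp21 were likewise at -0.5 (1 paternal read in Trim26), against means of 0.0001 to 0.0078 in M+Z+. H2-T22, a nonclassical MHC gene, was paternal at 0.184 ± 0.039, less than in M+Z+ (0.305 ± 0.053; adjusted p = 0.0135). Of 14 H2 genes tested, 13 were biased, 3 paternal and 10 maternal. By the study's methods the paternal mutant copy came from 129S6/SvEvTac mice, and reads of any 129 sequence still linked to it cannot be told apart from maternal reads. The sources differ on whether M+Z+ embryos had a mutant copy, and from which parent. They thus do not settle whether the paternal chromosome of M+Z+ embryos carries such sequence. Within 5 Mb of Zfp57 the median P-score was -0.0135 to 0.0108 in the M+Z+ embryos. At most genes there, paternal reads of M+Z+ embryos were thus told apart from maternal reads. Linked 129 sequence itself was not tested for.

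At higher coordinates the nearest genes were Gabbr1, Rn45s, Cenpq, Mmut and Ptchd4. Gabbr1, a GABA receptor subunit 0.0448 Mb away, had no paternal read among 3554. Rn45s, the ribosomal RNA precursor, whose repeats lie on several chromosomes, was at -0.433 ± 0.023 in M-Z- and -0.421 ± 0.013 in M+Z+. Cenpq, Mmut and Ptchd4, from 3.92 to 5.31 Mb, divided by sex. Mmut, methylmalonyl-CoA mutase, had P-scores of -0.0646, -0.0407, -0.0546 and -0.0029 in females and -0.5 in all 3 males (adjusted p = 3.73e-22). Of 362 genes on the chromosome, 55 differed between the sexes (15.2%), all lower in males, led by Unc5cl, Bicral, Cul9, AI661453 and Tspo2 at 9.50 to 11.5 Mb. Cul9 was at 0.138, 0.126, 0.0234 and 0 in females and at -0.5 in the 3 males (adjusted p = 4.43e-14). Over the whole chromosome, 26.9% to 28.2% of genes were at -0.45 or lower in the 4 females, 41.6% to 42.0% in the 3 males and 6.41% to 7.73% in other embryos, save 1 male M-Z+ embryo at 19.4%. In that embryo 4 of 96 genes within 5 Mb of Zfp57 were at -0.45 or lower, as in embryos of its genotype.

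**Figure D5:**
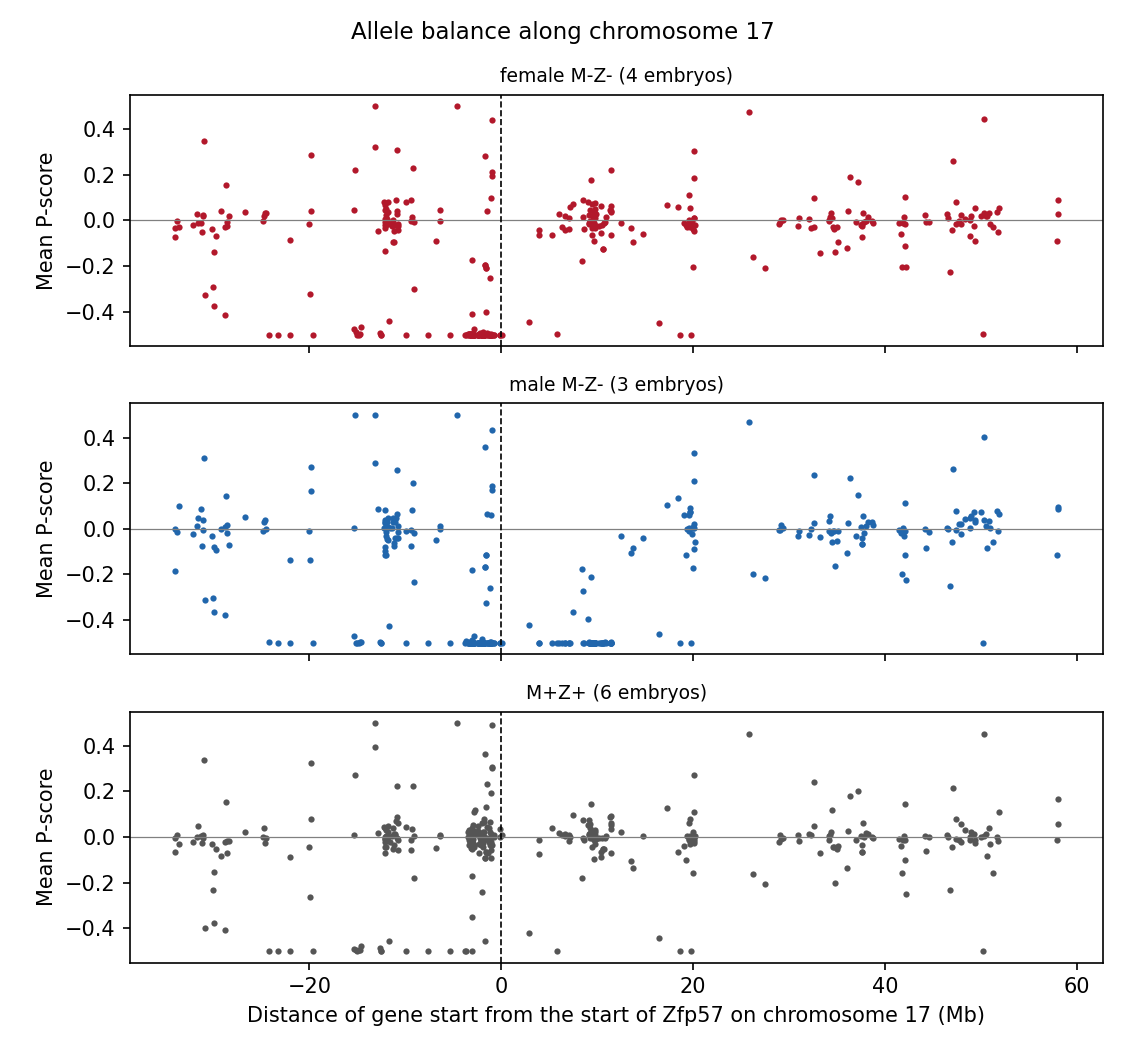
Mean P-score of chromosome 17 genes by distance in Mb from Zfp57 (dashed line) in female M-Z-, male M-Z- and M+Z+ embryos. Genes at -0.5 crowd the region just below Zfp57 in both sexes of M-Z-, and above it genes such as Mmut and Cul9 are at -0.5 in the 3 males alone.

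Compared with M+Z+ embryos, 79 of 347 chromosome 17 genes differed (22.8%), and with M-Z+ embryos 80 of 347 (23.1%), all lower in M-Z-. The 3 largest P-scores on the chromosome were those of Wiz, Elob and Efna5 (0.5, 0.4999 and 0.473), and each was within 0.03 of its M+Z+ mean. Many genes tied at -0.5 at the other end, and of those with no paternal read in M-Z- embryos Mtch1, Rgl2 and Vps52 had the most allele reads. Mtch1, a mitochondrial carrier, was at -0.5 in M+Z+ embryos too, whereas Rgl2 and Vps52 were at -0.0173 and -0.051 there. Igf2r, the maternally expressed receptor that clears IGF2, lies below Zfp57 at chr17:12875272-12962572 (mm9) and stayed maternal. It had 1 paternal and 1098 maternal reads over the 7 M-Z- embryos, at -0.5 in all but male 2 (-0.493), and was at -0.5 in all 6 M+Z+ embryos (difference not called, adjusted p = 0.836). The nearest tested genes at lower coordinates, Plg (0.018) and 4732491K20Rik (0.0344), were balanced, while Afdn and Phf10 at higher coordinates were at -0.5 in M-Z- and in M+Z+ embryos alike. Pde10a, a phosphodiesterase listed with Igf2r, was at -0.0184. The study listed the Igf2r control region, too, among those with affected DNA methylation in M-Z- embryos, measured in other embryos than these. Parent and strain cannot be told apart for the Igf2r bias either.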

How the data were processed

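RNA was sequenced from whole E13.5 embryos, 1 library per embryo. The authors aligned reads to mm9 with STAR (v2.7.8a for the gene tables, v2.5.4a for allele reads) and counted them with featureCounts (Subread v2.0.1). For the allelic tables they split reads between the 129 and DBA alleles with SNPsplit (v0.4.0) on a genome masked at variant positions, so genes with few variants have few allele reads and a wrong variant moves all reads over it. Both kinds of deposited table hold raw, not normalized counts per gene symbol. In the gene tables reads over overlapping genes counted for each. Overlap handling in the allelic tables is not given in the sources used here.

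Columns were matched to embryos by name. 8 allele columns, of 4 female M+Z+ embryos, carry repeated names and were not used, so 19 embryos entered the allelic comparisons where 23 had been planned. Paternal and maternal counts were fitted with edgeR 4.0.16 (R 4.3.3; quasi-likelihood, embryo as a block, both columns of an embryo scaled by its summed autosomal allele reads), and p-values were adjusted by Benjamini-Hochberg over all autosomal genes tested, with a mean of 20 or more allele reads (in each genotype, for differences between genotypes). Genotype and sex differences are the interaction of allele with group in the same kind of fit. A call also needed a P-score, or P-score difference, of 0.1. P-scores were taken in embryos with more than 10 allele reads. Log2 values are log2 ratios of paternal to maternal reads. The scripts were tested on simulated data. The labels do not name litters, so p-values measure the spread between these embryos, and limits on a count of 0 (3 counts of the total) cover counting error only.

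Named genes were Zfp57, list genes biased in M-Z- or different from M+Z+, and called members of the other lists. Outside the list off chromosome 17 they were the 10 largest and 10 smallest P-scores (100 or more allele reads, same sign in all 7 embryos). The 5 largest differences per genotype comparison there were added. Between the sexes up to 5 were named by size on any chromosome. On chromosome 17 the 5 nearest genes on each side of Zfp57 and the 3 largest P-scores in each direction were named. Others, among them the genes off chromosome 17 that differed between the sexes, were chosen after their values were seen. Members, lists and rules were chosen with earlier results of these data known. Alternatives were DESeq2 1.42.0, TMM scaling, exact permutation tests of P-scores, other read and P-score minimums, each sex alone, and each embryo left out. The whole comparison with M-Z+, with its TMM and left-out-embryo alternatives, was added after seeing the data, as was the sex comparison in embryos 1 to 3.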

Additional observations from a re-analysis of the deposited data

Results flagged for a closer look

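In 25 of 158 groups of 4 to 7 embryos a single embryo stood far from the rest. For freely varying values chance alone gives about 1 in 20, a rate that does not apply to groups at the bound of the score (0.5 or -0.5), where 1 stray read is enough, and Hbb-b1 and Hbb-bs are identical counts. In M-Z- embryos male 3 stood apart in Slc38a4 (0.492, the others at 0.5) and Kcnk9 (-0.4091), and male 2 in Igf2r (-0.4932), Rn45s (-0.3817), Hc (-0.3571) and the identical pair Hbb-b1 and Hbb-bs (-0.4998 each). Male 1 stood apart in Plagl1 (-0.07086), Trim26 (-0.498), Zscan22 (0.1) and Txlna (-0.05372), and female 1 in Elob (0.4994).

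In M+Z+ embryos the values apart were Slc38a4 in male 3 (0.4808), Ndn in female 1 (0.4644), Zdbf2 in male 4 (0.2077), Hymai in male 2 (0.4792) and AF357359 in female 2 (-0.2407). In M-Z+ embryos female 3 stood nearer to 0 than the others for Meg3 (-0.3966) and Rian (-0.4063), and apart for Dlk1 (0.4154), Igf2r (-0.4964) and A330076H08Rik (0.1333). Female 2 stood apart in Plagl1 (0.4824), and male 1 in Peg13 (0.4611) and in the share of chromosome 17 genes read only from the maternal allele (19.44%).

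Between the sexes of M-Z- embryos 12 named genes differed by the test of the difference itself. On chromosome 17 the P-score of females minus males was 0.7222 for Unc5cl, 0.5761 for Bicral, 0.5719 for Cul9, 0.5649 for AI661453 and 0.5626 for Tspo2. Off it the difference was 0.4674 for Far2, 0.3994 for Tmtc1, 0.3718 for Ergic2, 0.254 for Rps4l, 0.3266 for Sdhd, 0.1846 for Txlna and 0.1333 for Zscan22. In Zscan22 and Txlna only male 1 differed.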

How the results depend on the processing

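No named gene with a called bias in M-Z- embryos, or a called difference from M+Z+, changed the direction of that call under the alternatives run. Genes near 0 in M-Z- embryos, such as Usp29 (0.07609 in female 1, -0.05819 in female 4), have no settled direction. The number of biased genes off chromosome 17 was 1888 with no minimum P-score and 681 with a minimum of 0.2, against 1047. For the imprinted list, 23 were called with no minimum and 7 with at least 50 allele reads, against 12. The paternal share of those 12 calls, 58.3%, was 39.1% with no minimum, 50% in the 4 females alone, without male 1 or without male 3, 66.7% in the 3 males alone and 71.4% with at least 50 allele reads. Leaving out 1 embryo gave 1009 to 1042 biased genes off chromosome 17, 151 to 153 on it and 10 to 13 list genes. It gave 28 to 33 genes different from M+Z+ off chromosome 17 (20 to 21 of the list) and 20 to 24 different from M-Z+ (15 to 19 of the list). The count between the sexes off chromosome 17, 7 in all, was the least stable. It was 4 with DESeq2, 3 with at least 50 allele reads, 17 with at least 1, and 1 to 13 with an embryo left out (1 without female 2, 13 without female 1, 4 without male 1). On chromosome 17 it was 53 to 55 with an embryo left out, 42 with at least 50 allele reads and 59 with at least 1, against 55.

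With a replicate block on embryos 1 to 3 of each sex, 16 genes off chromosome 17 differed between the sexes, against 8 in the same embryos with no replicate block. Same-numbered females and males share only a number, since the correlations of their deviations were -0.013, 0.021 and -0.012 over 5996 genes, and not every male correlated best with its own number. The fit without the embryo as a block gave 1027 biased genes off chromosome 17 and 11 of the list.

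Calls of Wdr25, Impact and Tacc2 were lost under some alternatives, as given with them. Calls of the sex genes off chromosome 17 were lost under some too, for which only the counts are given. Against M-Z+, leaving out single embryos ended the calls of Ndn, Peg12, Zdbf2, Begain, A330076H08Rik and Utrn, that of Zdbf2 without any of 6 embryos (female M-Z+ 1 or 3, male M-Z+ 3, female M-Z- 2 or 3, male M-Z- 1; adjusted p 0.0533 to 0.0835). Zim1 without female 1 and Wdr25 without female 3 were below the minimum of 20 allele reads and so had no test. TMM scaling moved the median log2 ratio by at most 0.019. Depth limits genes near 20 allele reads, such as Zim1 and Wdr25.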
